A study of Mus musculus with 2 samples.

Results

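Zeb1, Zeb2 and 8 further genes that mark or control the balance between epithelial and mesenchymal states were followed through single-cell RNA-seq of mouse back skin. The genes are the mesenchymal-side factors Zeb1, Zeb2, Snai2, Twist1, Twist2 and Vim and the epithelial-side factors Grhl2, Ovol1, Esrp1 and Trp63. They were chosen by symbol in the deposited feature tables, and all 10 were found among 31053 features. Both libraries came from adult back skin at postnatal day 53, 1 mouse each, and both mice carried a Krt14-H2b-GFP allele, which labels nuclei of keratin 14 cells. The induced mouse also carried a pTRE2-miR-205 transgene switched on by Krt14-rtTA, so that doxycycline in the chow turns on miR-205 where the keratin 14 promoter is active, which is in epithelial cells; mature miR-205 itself is not measured by these libraries. The feeding ran for 4 days and began at postnatal day 49. Per the extraction protocol both mice were fed doxycycline, whereas a label of the control calls that mouse untreated. The labels give the strain as C57BL/6, while the transgenic founders were FVB mice according to the methods of the study, which also name littermate controls and processing of the pair on the same chip. Cells were sorted toward 3 parts epidermis, 5 parts hair follicle and 2 parts dermis, so cell numbers per type reflect the sort as well as the skin. With 1 library per group no difference between the mice has a replicate check, no p-value was computed, and every interval covers counting error only.

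Zeb1 and Zeb2 are zinc-finger repressors that silence E-cadherin and other epithelial genes, and Snai2 (Slug), Twist1 and Twist2 act in the same programme of epithelial-mesenchymal transition. Vim encodes vimentin, the intermediate filament of mesenchymal cells. On the other side Grhl2 and Ovol1 are transcription factors that maintain epithelial identity, Esrp1 directs epithelial splicing, and Trp63 (p63) is required for stratified epithelium. Zeb1 and Zeb2 mRNAs are textbook targets of miR-205 and of the miR-200 family, which keep them low in epithelial cells, and Snai2 is also known as a gene of keratinocyte progenitors.

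The induced RNA is mature mmu-miR-205-5p, 22 bases, encoded on the minus strand at chr1:193507503-193507524 (GRCm38.p6). It is shown, from RefSeq, because its seed decides which letters were searched in the members, and capitals mark the seed, bases 2 to 8.
miR-205-5p: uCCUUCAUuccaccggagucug
The longest annotated 3′ untranslated region of each member was searched on the transcript strand for ATGAAGG, the complement of the seed, and for TGAAGGA, the complement of bases 2 to 7 followed by A. An overlap of both strings is a match to the whole seed followed by A. Zeb1 held 1 such overlapping match in 2401 bases, and its sequence is not shown. Zeb2 held no ATGAAGG and 3 matches to TGAAGGA in 4939 bases, Twist1 held 1 TGAAGGA in 688 bases, and Grhl2 held 1 in 2718 bases. The matches in Zeb2, Twist1 and Grhl2 are shown with the match in capitals, and their NCBIM37 positions follow.
Zeb2 first: tatttttttctgTGAAGGAacttgaag
Zeb2 second: gtgacctggatgTGAAGGAaaaagtaa
Zeb2 last: agtgggagggccTGAAGGAggaaggag
Twist1: ccatacttcctcTGAAGGAaaagaaaa
Grhl2: aatggccctttcTGAAGGAcaagcagg
The Zeb2 matches lie at chr2:44843514-44843520, chr2:44843450-44843456 and chr2:44840604-44840610 on the minus strand, the Twist1 match at chr12:34644517-34644523 on the plus strand and the Grhl2 match at chr15:37293146-37293152 on the plus strand, all in 3′ untranslated exon. Neither string was found in the annotated regions of Snai2, Twist2, Vim, Ovol1, Esrp1 or Trp63, which says only that these letters are not in those windows. Long regions often hold such strings. Among 2476 genes with a region 0.8 to 1.2 times as long as that of Zeb1, 19.4% held ATGAAGG, and among 771 genes near the length of Zeb2, 43.5% held TGAAGGA. The share with TGAAGGA was 9.31% near the length of Twist1 and 28.4% near that of Grhl2. Over all 19915 genes the shares were 10.4% for ATGAAGG and 13.8% for TGAAGGA. A match is a description of sequence, not a measured site.

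In the GRCm38.p6 annotation Zeb1 lies at chr18:5591327-5775468, Zeb2 at chr2:44983512-45117442, Snai2 at chr16:14705852-14709395, Twist1 at chr12:33957671-33959831, Twist2 at chr1:91801461-91848034 and Vim at chr2:13574311-13582826. Grhl2 lies at chr15:37232821-37363569, Ovol1 at chr19:5549137-5560575, Esrp1 at chr4:11331933-11386783 and Trp63 at chr16:25683763-25892088.

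The control library held 4545 barcodes and the induced library 4264, of which 3936 and 3628 cells passed the filter on genes and mitochondrial UMIs, with medians of 12198.5 and 11752.5 unique molecular identifiers (UMIs, one per captured molecule). The libraries shared 11 barcodes, 5 of them among kept cells. Clustering without the 10 members gave 24 clusters, 16 of them epithelial by their summed marker UMIs and 8 not. Epithelial cells numbered 3502 in the control and 2995 in the induced library, fibroblast-like cells 137 and 186, and dermal papilla-like cells 141 and 221. Clusters are called by markers, such as IFE (interfollicular epidermis) or HF-SC (hair follicle stem cell), or by number where markers did not name them. Endothelial-like cluster 23, led by Fabp4 and Pecam1, also held antigen-presenting markers at 6946 CPM. Fibroblast markers (Col1a1, Dcn and others) made up 107500 CPM (UMIs of a gene or list per 1000000 UMIs of those cells) in fibroblast-like cells of the control and 31.9 CPM in its epithelial cells, and 72890 and 20.7 CPM in the induced library.

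Zeb1, Zeb2, Twist1, Twist2 and Vim were far higher in fibroblast-like than in epithelial cells of both libraries. Zeb2 stood at 547 CPM (95% Poisson interval 510 to 585) in fibroblast-like cells of the control and 0.743 CPM (0.518 to 1.03) in its epithelial cells, from 832 and 35 UMIs. In the induced library Zeb2 stood at 567 CPM and 1.09 CPM. The log2 ratio of fibroblast-like over epithelial cells for Zeb2 was 9.50 in the control and 9.01 in the induced library, so this repressor stood 726-fold and 515-fold higher in the dermal cells. Zeb1 was measured at 65.1 CPM (52.9 to 79.2) against 0.51 CPM in the control and 63.1 against 0.52 CPM in the induced library, log2 ratios of 6.97 and 6.90. Its epithelial level rested on 24 UMIs in the control and 21 in the induced library.

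Twist1, a basic helix-loop-helix factor of dermal mesenchyme, was at 475 CPM in fibroblast-like and 0.234 CPM in epithelial cells of the control, and at 485 and 0.446 CPM in the induced library. Twist2 was at 124 CPM against 0.0637 CPM, and at 121.5 against 0.099 CPM. The epithelial Twist2 level came from 3 UMIs in the control and 4 in the induced library, so its log2 ratios of 10.70 (9.35 to 13.21) and 10.09 (8.89 to 12.15) have wide intervals. Vim was at 4489 CPM in fibroblast-like cells of the control and 14.3 CPM in epithelial cells, and at 5959 and 15.4 CPM in the induced library. These 5 genes were past a log2 ratio of 1 in both libraries, where 23.1% of all 12735 genes tested in the control and 23% of 12854 in the induced library were as far higher in fibroblast-like cells.

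**Figure D1:**
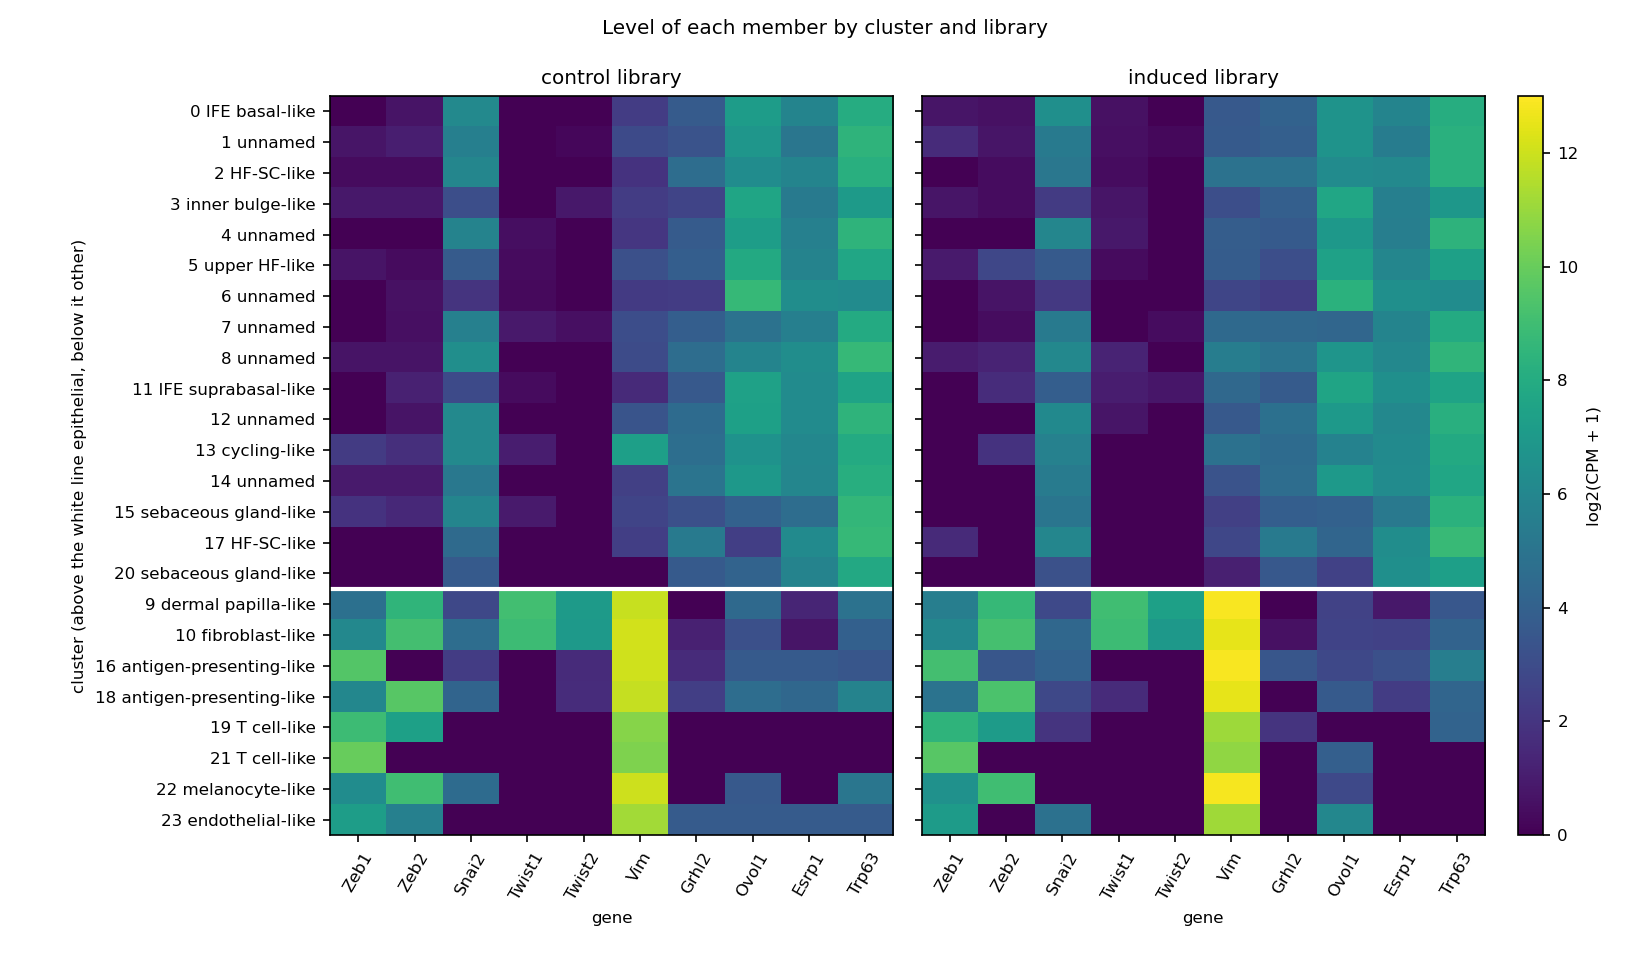
Level of each of the 10 genes (columns) in each of the 24 clusters (rows), control library on the left and induced on the right, as log2(CPM + 1); rows above the white line are epithelial. In both libraries Zeb1 and Vim are brighter in every row below the line than above it. Zeb2 is bright in most rows below the line. The exceptions are T cell-like cluster 21, antigen-presenting-like cluster 16 and, in the induced library, endothelial-like cluster 23. Twist1 and Twist2 are bright only in the fibroblast-like and dermal papilla-like rows. Grhl2, Ovol1, Esrp1, Trp63 and Snai2 are mostly brighter above the line.

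Snai2 went the other way from the remaining mesenchymal-side genes. It stood at 46.4 CPM (44.5 to 48.4, 2185 UMIs) in epithelial and 24.3 CPM (17.1 to 33.5, 37 UMIs) in fibroblast-like cells of the control, a log2 ratio of -0.91 (-1.44 to -0.46). In the induced library it stood at 40.2 and 19.5 CPM, a log2 ratio of -1.03 (-1.55 to -0.58). Snai2 was lower still in dermal papilla-like cells, at 6.04 CPM in the control and 6.42 CPM in the induced library. The intervals of its epithelial and dermal levels did not overlap in either library.

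Grhl2, Ovol1, Esrp1 and Trp63 were epithelial in both libraries. Trp63 was at 266 CPM in epithelial and 15.1 CPM in fibroblast-like cells of the control, and at 240.2 and 16.9 CPM in the induced library. Ovol1 was at 152.5 against 7.89 CPM and at 127.5 against 5.13 CPM. Fibroblast-like cells thus held Trp63 at 5.68% and Ovol1 at 5.17% of the epithelial level in the control, where the summed keratinocyte marker list, which fibroblasts should lack, was at 5.97% of its epithelial level. In the induced library the shares were 7.04% for Trp63, 4.02% for Ovol1 and 4.90% for that list. Esrp1 was at 57.0 against 0.657 CPM in the control and 62.5 against 4.62 CPM in the induced library, from 1 and 9 fibroblast-like UMIs, and Grhl2 was at 13.9 against 1.31 CPM and 16.5 against 0.513 CPM, from 2 and 1 UMIs. The counting interval of each of these 8 fibroblast-like levels included the share at which the keratinocyte list stood, and they were read as background. Snai2 in fibroblast-like cells was at 52.4% and 48.4% of its epithelial level, well above the keratinocyte list. Past a log2 ratio of -1 were 4 members in the control, where 23.4% of genes were as far lower, and 5 in the induced library, where 21.8% were. Snai2 made the difference, with values on either side of that bound.

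In cells with a UMI the same contrast held after each cell was thinned to 5000 UMIs. Zeb2 was detected in 89.5% (82.3 to 94.4%, exact binomial) of fibroblast-like and 0.267% of epithelial cells of the control, and in 82.5% and 0.315% in the induced library, after 23 and 32 fibroblast-like and 130 and 134 epithelial cells with fewer UMIs were left out. Unthinned, Zeb2 was detected in 93.4% and 91.4% of fibroblast-like cells and 0.657% and 0.601% of epithelial cells, at median depths of 10531 and 10173 UMIs for the former and 12677.5 and 12732 for the latter. Zeb1 was detected in 25.4% (17.8 to 34.5%) and 20.1% (14.1 to 27.3%) of thinned fibroblast-like cells, and in 0.119% and 0.245% of thinned epithelial cells. The intervals of the 2 libraries overlapped for Zeb1 and Zeb2 in each compartment.

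The balance of Zeb1 and Zeb2 differed between cell types. In fibroblast-like cells of the control 79 of 137 cells had a UMI of Zeb2 without Zeb1 and 4 the reverse, and in dermal papilla-like cells the numbers were 76 of 141 and 3. Of the antigen-presenting-like cells, cluster 16, led by Cd207, the langerin gene of Langerhans cells, held Zeb1 at 728.5 CPM in the control and 561 CPM in the induced library and Zeb2 at 0 of 52 cells and at 10.0 CPM. Cluster 18, led by Lyz2, the lysozyme gene of macrophages, held Zeb2 at 775 and 638 CPM and Zeb1 at 63.0 and 30 CPM. The intervals of Zeb1 did not overlap between these clusters in either library, nor did those of Zeb2. Per cell, 49 of 52 control cells of cluster 16 had a UMI of Zeb1 without Zeb2 and none the reverse, while in cluster 18 18 of 36 had Zeb2 without Zeb1 and 1 the reverse. In the induced library the numbers were 38 of 46 and 28 of 49.

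The 2 T cell-like clusters also differed in their balance of the Zeb genes. Cluster 21, led by Trdc, the constant chain of the gamma-delta T cell receptor, held Zeb1 at 1009 CPM (845 to 1196) in the control and 794 CPM (655 to 955) in the induced library, the highest Zeb1 levels of any cluster in each library. No Zeb2 UMI was found in its 29 and 28 cells, which allows up to 22.8 and 21.1 CPM by a count of 3. Cluster 19, led by Icos and Cxcr6, held Zeb1 at 475 and 355 CPM and Zeb2 at 168 and 141 CPM, though the control had only 8 such cells. Melanocyte-like cells held Zeb2 at 517 and 509 CPM and Zeb1 at 78.6 and 95.4 CPM. Twist1 and Twist2, unlike the Zeb genes, reached at most 2.17 CPM in clusters 16, 18, 19, 21 and 22, with 0 or 1 UMI in each library, so the pair was a feature of fibroblast-like and dermal papilla-like cells here.

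**Figure D2:**
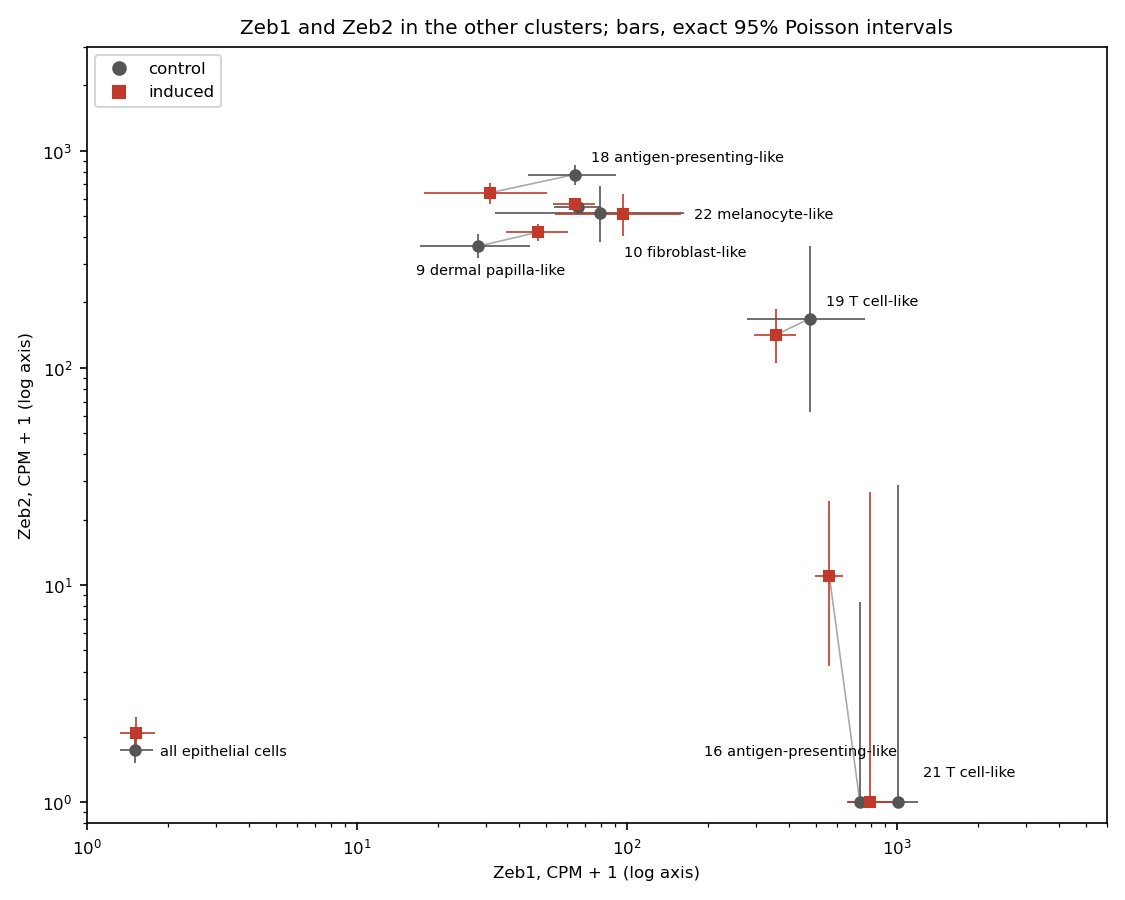
Zeb1 (x axis) against Zeb2 (y axis), CPM + 1 on log axes, in the 7 non-epithelial clusters other than endothelial-like cluster 23 and in all epithelial cells, with 1 point per library and bars for exact 95% Poisson intervals. Clusters 16 and 21 lie at the lower right with Zeb1 at 561 CPM or more and Zeb2 at or below 10.0 CPM, clusters 9, 10, 18 and 22 at the upper left, and epithelial cells at the lower left.

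Over the 16 clusters with at least 50 cells in each library, which leave out every immune cluster, the genes most like Zeb1 in log2(CPM + 1) were Colec12 (Pearson r of 0.957), Tnfrsf1b (0.957) and Zeb2 itself (0.954). Those most like Zeb2 were Mmp19 (0.981), Tmem132c (0.977) and Colec12 (0.976). The 32 values are clusters of 2 libraries and are not independent, and fibroblast-like and dermal papilla-like cells alone were high, so r describes their contrast with epithelium.

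Within the epithelium the epithelial-side genes did not run together. The orders given here are over the 14 epithelial clusters with at least 50 cells in each library, which leave out HF-SC-like cluster 17 and sebaceous gland-like cluster 20. Trp63 was highest in cluster 8 (led by Pthlh, Ctgf and Tgfb2), at 411 CPM (380 to 444) in the control and 357 CPM (332 to 384) in the induced library. It was lowest in cluster 6 (led by Lor, Cst6 and Klk7, genes of cornifying cells), at 77.5 and 79.7 CPM, and next lowest in inner bulge-like cells, at 133 and 118 CPM. Those 2 lowest levels were apart from each other and from the next in both libraries, while neighbours at the top overlapped. Ovol1 ran opposite at the differentiated end, with its highest level in cluster 6, at 413 CPM (393 to 433.5) and 317 CPM (299 to 336.5), apart from the second in both libraries. Its lowest levels were in sebaceous gland-like cluster 15, at 15.3 and 15.2 CPM, and in cluster 7 (led by Tagln, Acta2 and Lgr5), at 28.5 and 18.6 CPM. Of the clusters left out, cluster 17 held Trp63 at 411 and 431 CPM and Ovol1 at 4.32 and 17.8 CPM, and cluster 20 held Ovol1 at 16.8 and 4.80 CPM, from 1 to 9 Ovol1 UMIs each.

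Snai2 followed the basal side. It stood at 67.4 and 86.4 CPM in IFE basal-like cells and at 84.3 and 65.9 CPM in cluster 8, against 6.57 and 13.7 CPM in IFE suprabasal-like cells and 2.86 and 3.49 CPM in cluster 6. Inner bulge-like cells were also low in Snai2, at 7.78 and 3.74 CPM, while HF-SC-like cluster 2 stood at 61.1 and 34.8 CPM, from 202 and 105 UMIs, with intervals that did not overlap. The smaller HF-SC-like cluster 17, with 32 and 63 cells, went the other way, at 21.6 and 61.2 CPM from 5 and 31 UMIs, a log2 ratio of 1.39 (0.13 to 3.22), so HF-SC-like cells had no single direction for Snai2. Esrp1 varied less, from 24.3 to 83.2 CPM in the control and from 37.3 to 87.6 CPM in the induced library, lowest in cluster 15 in both. Grhl2 was lowest in cluster 6, at 3.90 and 4.07 CPM, the cluster where Ovol1 was highest, and reached 31.1 CPM in cluster 14 of the control and 30.5 CPM in cluster 8 of the induced library, with intervals that overlapped their neighbours. Cluster 17, outside that order, held Grhl2 at 38.9 and 39.5 CPM, from 9 and 20 UMIs.

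**Figure D3:**
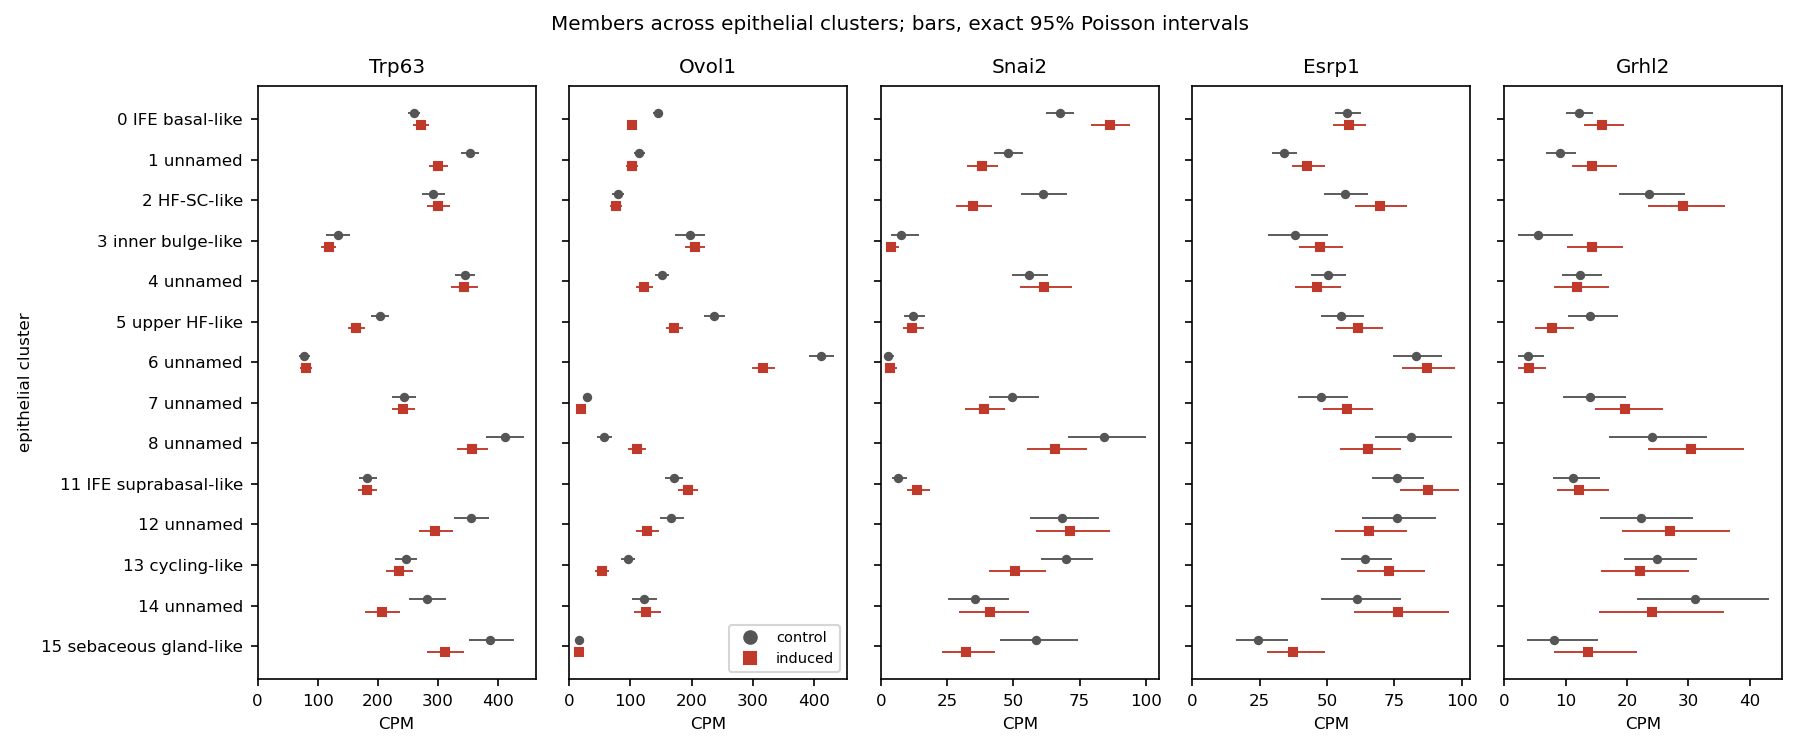
CPM of Trp63, Ovol1, Snai2, Esrp1 and Grhl2 (panels, each with its own axis from 0) in the 14 epithelial clusters with at least 50 cells in each library, control as grey circles and induced as red squares, with exact 95% Poisson intervals. Cluster 6 is lowest for Trp63, Snai2 and Grhl2 and highest for Ovol1 in both libraries.

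Between the libraries the summed epithelium showed small differences in every epithelial-side gene. Ovol1 was at 152.5 CPM in the control and 127.5 CPM in the induced library, a log2 ratio of -0.26 (-0.31 to -0.21). It was lower in the induced library in 10 of 14 clusters, 7 of them beyond the counting interval, and 2 intervals lay above 0. Trp63 was at 266 and 240.2 CPM, a log2 ratio of -0.15 (-0.19 to -0.11), lower in 11 of 14 clusters and 6 beyond the interval. Snai2 was at 46.4 and 40.2 CPM, a log2 ratio of -0.21 (-0.30 to -0.11). It was lower in 8 of 14 clusters and higher in 6, with 5 intervals below 0 and 2 above. The differences of Trp63 and Snai2 were -0.10 and -0.06 with clusters weighted by their control cell shares, and -0.02 and 0.03 among cells under 5% mitochondrial UMIs, whereas Ovol1 stood at -0.25 and -0.26. Grhl2 was at 13.9 and 16.5 CPM, a log2 ratio of 0.24 (0.08 to 0.40). It was higher in 10 of 14 clusters, with 2 intervals above 0 and 1 below. Esrp1 was at 57.0 and 62.5 CPM, a log2 ratio of 0.13 (0.05 to 0.21). It was higher in 11 of 14 clusters, with 2 intervals above 0 and 0 below.

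Of the mesenchymal-side genes in epithelial cells, Zeb1 was at 0.51 CPM in the control and 0.52 CPM in the induced library, a log2 ratio of 0.03 (-0.89 to 0.93). Cycling-like cluster 13 held 11 of the 24 control UMIs of Zeb1 and 0 of the 21 induced ones. The Zeb1 ratio was 2.61 among cells under 5% mitochondrial UMIs, 2.02 at cluster resolution 1.2 and 0.96 (-0.71 to 2.95) without cells that held a stromal or immune marker UMI, where 5 and 9 UMIs remained, so its value rests on few molecules. Zeb2 was at 0.743 and 1.09 CPM, from 35 and 44 UMIs (0.55), and Twist1 at 0.234 and 0.446 CPM, from 11 and 18 UMIs (0.91). Both of these intervals included 0. Of the 44 induced Zeb2 UMIs 19 lay in upper HF-like cluster 5, which had 1 in the control. In each library a few cells held many of the Zeb2 UMIs, with 30 of the 44 induced and 17 of the 35 control ones in 5 cells. In all, 2 of 9 members with at least 20 UMIs were past a log2 ratio of 0.5 and higher in the induced library, where 12.6% of 13242 genes were as far higher, and none was as far lower, where 5.06% were. The 2 are Zeb2 and Twist1. The mean of CPM over cells gave -0.52 for Twist1 and 0.45 for Zeb2, so neither call held there. Without the epithelial cells that held a UMI of a stromal or immune marker, Zeb2 stood at 0.423 and 0.52 CPM, from 11 and 12 UMIs, and Twist1 at 0.115 and 0.477 CPM, from 3 and 11 UMIs, a log2 ratio of 1.89 (0.13 to 4.53) under the minimum of 20 UMIs.

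**Figure D4:**
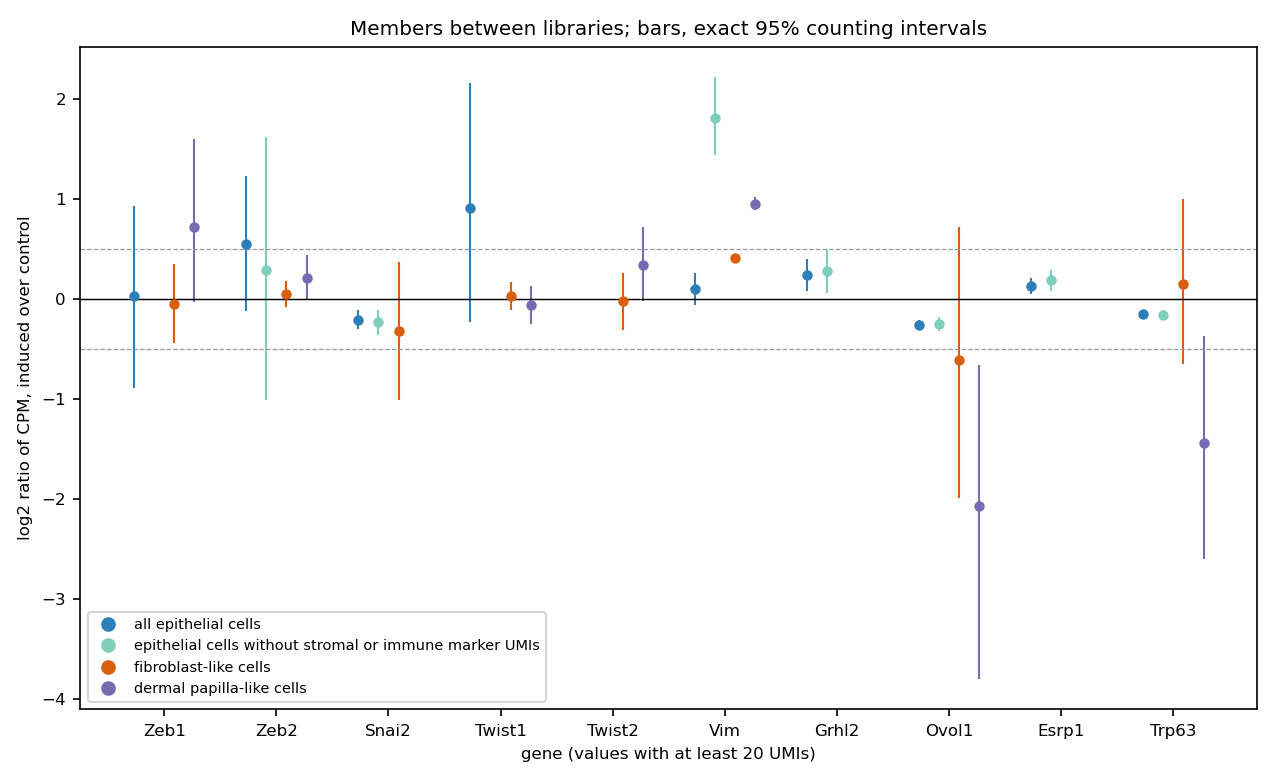
Log2 ratio of CPM, induced over control (y axis), for each gene with at least 20 UMIs, in all epithelial cells, in epithelial cells without a stromal or immune marker UMI, in fibroblast-like and in dermal papilla-like cells, with exact 95% counting intervals; dashed lines mark 0.5 and -0.5. Zeb1 and Zeb2 intervals include 0 in every population, and the Vim interval lies above 0 in all but the whole epithelium.

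Vim behaved otherwise once the epithelial cells with a stromal or immune marker UMI, 2643 of 6497, were left out. Over all epithelial cells Vim was at 14.3 CPM in the control and 15.4 CPM in the induced library, a log2 ratio of 0.10 (-0.06 to 0.26). Of the 673 control UMIs, however, 464 lay in cycling-like cluster 13, and 456 of these were in 5 cells. Of 88 Vim UMIs in induced HF-SC-like cluster 2, 77 were in 5 cells, and in induced cluster 8 it was 91 of 93. Epithelial cells with any UMI of 8 stromal and immune markers (Col1a1, Col1a2, Col3a1, Dcn, Cd74, Ptprc, Cd3g and H2-Ab1) numbered 1457 and 1186 and held 599 and 389 Vim UMIs. Without them Vim was at 2.85 CPM in the control (74 UMIs in 71 of 2045 cells) and 10.1 CPM in the induced library (232 UMIs in 137 of 1809 cells), 3.52-fold higher, a log2 ratio of 1.82 (1.44 to 2.22). The share of these cells with a Vim UMI was 3.47% (2.72 to 4.36%) and 7.57% (6.396 to 8.89%).

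Vim was higher in the induced library in 13 of 14 such epithelial clusters, 5 of them beyond the counting interval. IFE suprabasal-like cells stood at 0.661 and 24.8 CPM (1 and 41 UMIs; of all 57 induced Vim UMIs of this cluster 39 were in 5 cells), cluster 7 at 5.70 and 27.3 CPM, cluster 4 at 2.41 and 13.3 CPM, IFE basal-like cells at 2.73 and 12.5 CPM, and HF-SC-like cluster 2 at 1.93 and 6.92 CPM. Only sebaceous gland-like cluster 15 was not higher, with 2 and 3 UMIs. With marked cells included, the Vim log2 ratio of cluster 7 was 1.43. It was -0.46 there under 5% mitochondrial UMIs and -0.037 by the mean of CPM over cells. The Vim level over all kept cells also differed, at 292 CPM in the control and 677.5 CPM in the induced library, so the marker-free epithelial cells held 0.975% and 1.48% of the level of their whole library. In the same cells the dermal papilla marker list was at 14.0 and 19.0 CPM, the melanocyte list at 1.04 and 3.51 CPM and the fibroblast list at 1.15 and 1.26 CPM. The endothelial list was at 1.61 and 2.43 CPM. The mural list (Acta2, Tagln and others) went the other way, at 6.73 and 5.68 CPM. Over all epithelial cells, marked ones included, the mural list was instead at 9.60 and 23.2 CPM. Acta2 and Tagln also led epithelial cluster 7, so that list is not specific to mural cells here. Over all kept cells the dermal papilla list was at 80.1 and 105.6 CPM and the melanocyte list at 24.2 and 69.9 CPM. The part of these levels in the Vim difference was not tested.

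**Figure D5:**
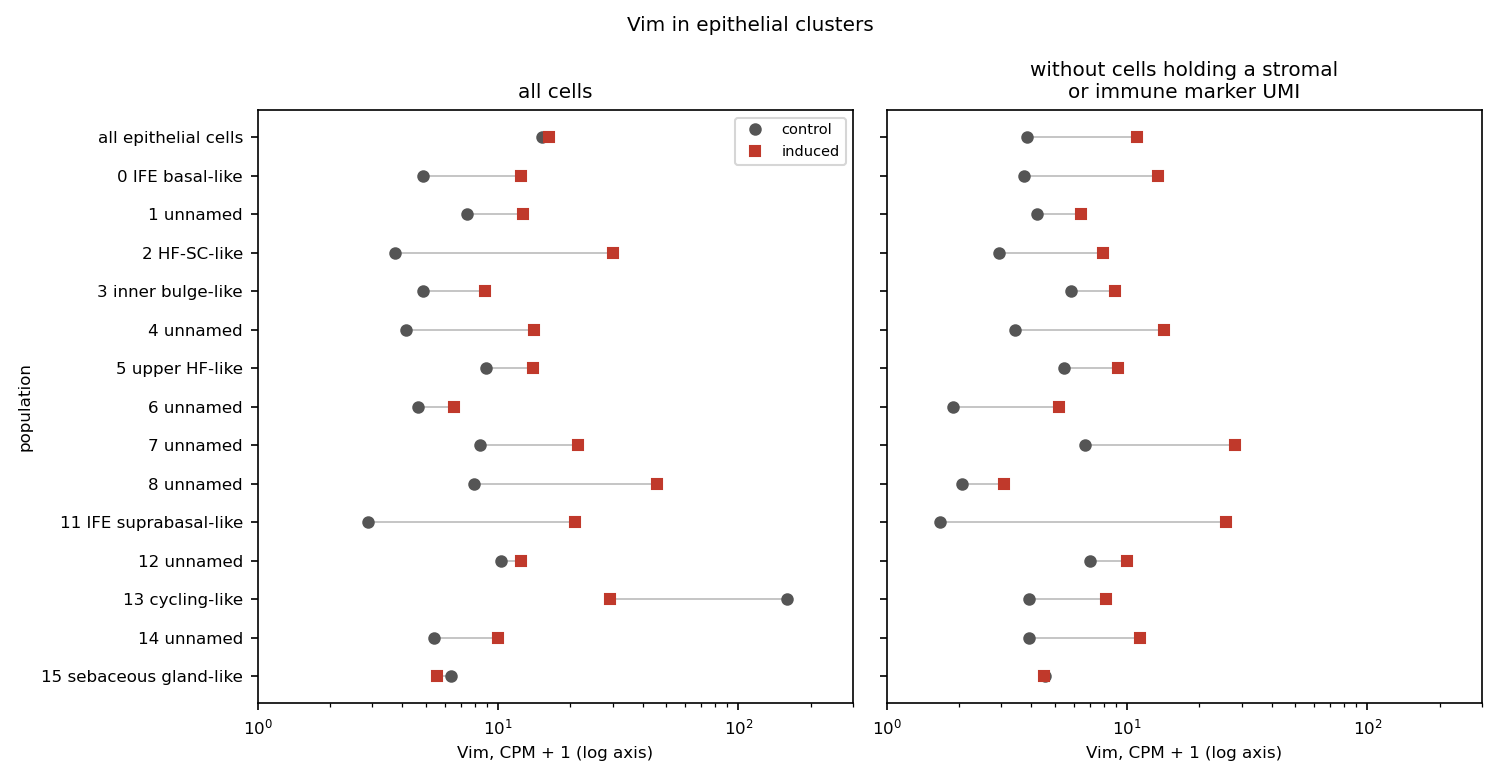
Vim, CPM + 1 on a log axis, in all epithelial cells and in 14 epithelial clusters, control as grey circles and induced as red squares, in all cells (left) and without cells that held a stromal or immune marker UMI (right). On the left the cycling-like cluster stands at 158.5 CPM in the control; on the right it is at 2.92 CPM and 13 of 14 clusters are higher in the induced library.

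In fibroblast-like cells, where Krt14-rtTA is not expected to be active, Zeb1 differed by a log2 ratio of -0.05 (-0.44 to 0.35), Zeb2 by 0.05 (-0.08 to 0.18), Twist1 by 0.03 and Twist2 by -0.02. Of 8 members tested none was past 0.5 and higher in the induced library, where 17.6% of 8830 genes were, and 1 was as far lower, where 7.67% were. That member was Ovol1, at 12 and 10 UMIs, a level read as background above. Vim was at 4489 and 5959 CPM, a log2 ratio of 0.41 (0.37 to 0.45). In dermal papilla-like cells Vim was at 3908 and 7572 CPM, a log2 ratio of 0.95 (0.89 to 1.02), Zeb1 at 27.2 and 45.8 CPM (0.72, with an interval of -0.03 to 1.60), Zeb2 at 362 and 420 CPM (0.21) and Twist2 at 133 and 169 CPM (0.34).

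Vim was higher in the induced library in most other non-epithelial clusters as well. Cluster 16 stood at 4259 and 7481 CPM, cluster 18 at 3758 and 5816 CPM and melanocyte-like cells at 4066 and 7191 CPM, log2 ratios of 0.81, 0.63 and 0.82. T cell-like clusters 19 and 21 stood at 1592 and 2206 CPM and at 1412 and 1842 CPM, with intervals above 0, and endothelial-like cells, 7 and 14 in number, at 2387 and 2246 CPM. Zeb1 was lower in the induced library in cluster 16, at -0.38 (-0.61 to -0.15), and in cluster 18, at -1.05 (-2.08 to -0.12, from 29 and 15 UMIs), and Zeb2 was lower in cluster 18, at -0.28 (-0.50 to -0.06). These clusters hold 36 to 52 cells per library, and with 1 mouse per group the mouse and the induction cannot be told apart.

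Beside the members, 61 genes of the same programme were read in 4 lists. Fibroblast-like cells were set against epithelial cells, in the control first. All 14 tested mesenchymal effectors, such as Fn1, Sparc and Cdh11, were past a log2 ratio of 1 (median 5.12, against -0.12 for all genes). All 16 epithelial effectors, such as Cdh1 and Epcam, were as far lower (median -4.08). Dsp and Perp among them are also in the keratinocyte list that set which clusters were epithelial. Their direction was thus partly fixed by that grouping. Of 13 tested epithelial regulators 12 were as far lower (median -4.33). Of 12 tested mesenchymal regulators 4 were as far higher and 2 as far lower (median 0.16). Over all genes 23.1% were as far higher and 23.4% as far lower. The counts of the 4 lists were the same in the induced library, where 23% of all genes were as far higher and 21.8% as far lower. Snai2 was not alone among factors named for mesenchyme in being expressed by keratinocytes. Foxc1 stood at 52.8 CPM in epithelial and 4.60 CPM in fibroblast-like cells of the control and at 70.95 and 8.21 CPM in the induced library. Runx1 stood at 94.3 and 64.4 CPM in the control, and at 93.8 and 111 CPM in the induced library, where the order turned.

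Between the libraries the medians of the lists in epithelial cells lay near the 0.06 of all genes. They were 0.06 for mesenchymal regulators, 0.11 for mesenchymal effectors, -0.01 for epithelial regulators and -0.04 for epithelial effectors. A median does not show moves in both directions, which the mesenchymal effectors held. Past 0.5 and higher were 1 of 10, 2 of 11, 1 of 14 and 0 of 16 genes, and as far lower 0, 3, 0 and 1, where 12.6% of all genes were as far higher and 5.06% as far lower. Elf3, an ETS factor of epithelia, was highest at 10.3 and 19.9 CPM (0.96), followed by Fn1, which encodes fibronectin, at 8.18 and 14.2 CPM (0.80) and Sox4 at 26.3 and 44.2 CPM (0.75). Mmp2, a gelatinase, was lowest at 16.8 and 7.38 CPM (-1.19), followed by Thy1 at 53.4 and 25.4 CPM (-1.07) and Cldn1, a tight junction claudin, at 1035 and 692 CPM (-0.58). The genes named for mesenchyme thus stood at both ends.

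In fibroblast-like cells 5 of 10 mesenchymal regulators were past 0.5 and higher in the induced library and none lower (median 0.45, against 0.08 for all genes), where 17.6% of all genes were as far higher and 7.67% as far lower. For 2 of the 5, Foxc1 with 7 and 16 UMIs and Runx2 with 9 and 18, the interval included 0. Runx1 was at 64.4 and 111 CPM (0.78), and Snai1, a Snail repressor related to Snai2 that had under 100 UMIs and was named after its values were seen, was at 11.2 and 35.4 CPM from 17 and 69 UMIs. Cdh11, a mesenchymal cadherin, was at 56.5 and 116 CPM (1.04), while of 14 mesenchymal effectors 3 were higher and 2 lower (median -0.03). Itgb4, Cldn4 and Epcam also differed, at 16.4 and 43.1, 85.4 and 6.67, and 74.9 and 46.2 CPM. They are keratinocyte genes. Their epithelial levels were 95.02, 820 and 1630 CPM in the control and 103, 599 and 1402 CPM in the induced library. The keratinocyte list stood at 1643 and 1318 CPM in fibroblast-like cells, so Itgb4 was higher in the induced library where that list was lower. How much of these fibroblast-like counts is background was not tested.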

How the data were processed

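Single-cell 3′ RNA-seq of 1 control and 1 induced mouse was used. The authors made UMI counts per gene and barcode with Cell Ranger (matrix header 3.0.1, build mm10 per the submitters' processing notes) and deposited raw, unnormalized counts. Cells with more than 200 and fewer than 5000 genes and under 10% mitochondrial UMIs were kept, as the study states. No doublet caller was applied, other than as an alternative. The 2 libraries were joined by Seurat 5.3.0 anchors, run in R 4.3.3 (2000 variable genes, 30 dimensions, resolution 0.8), with the members and 61 pathway genes withheld from the variable genes. A cluster took the name of a marker list with at least 3 markers raised 2-fold, 1 of them among its top 10 genes, unless another list had as many there. A cluster was epithelial where the keratinocyte list exceeded the other cell type lists.

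Counts were summed per cluster and library and divided by all UMIs of those cells (CPM), and 3′ tags were not divided by gene length. To each sum 0.5 UMIs were added before a log2 ratio was taken, and a ratio was counted where both sums together reached 20 UMIs. Intervals are exact 95% Poisson, conditional binomial (for ratios) or Clopper-Pearson (for shares). The ratio and its interval were tested on simulated independent Poisson counts, the model that the interval assumes. UMIs clumped in a few cells, as for Vim, were not simulated, so that test does not cover them. Seed matches were searched in GENCODE transcripts of NCBIM37, which is not the build of the counts, and gene positions come from RefSeq GRCm38.p6.

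The members and lists were chosen with earlier results of these data known. Named were all members, the 3 highest and 3 lowest pathway genes with at least 100 UMIs in epithelial and in fibroblast-like cells, the 3 genes most like Zeb1 and Zeb2 among those with at least 200 UMIs, and marker genes; 1 gene that this rule names is not reported here. Runx1 and Foxc1 in the comparison of cell types, Runx2, and the example effectors, were named after their values were seen. Alternatives changed the cell filter, doublets, cluster resolution, gate, library total, scaling, weighting, UMI minimum, fold and pseudocount.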

Additional observations from a re-analysis of the deposited data

Results flagged for a closer look

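Members that were past a log2 ratio of 0.5 with a counting interval that left out 0, in opposite directions in different epithelial clusters with at least 50 cells in each library, are listed here. Whether the clusters differ was not tested, since each has 1 library per group. Snai2 was lower in the induced library in HF-SC-like cluster 2 (-0.81) and sebaceous gland-like cluster 15 (-0.86) and higher in IFE suprabasal-like cluster 11 (1.04). It was also higher in the smaller HF-SC-like cluster 17 (1.39, with 32 and 63 cells). Ovol1 was lower in IFE basal-like cluster 0 (-0.50), cluster 7 (-0.61) and cycling-like cluster 13 (-0.86) and higher in cluster 8 (0.95). Grhl2 was higher in cluster 1 (0.67) and inner bulge-like cluster 3 (1.31) and lower in upper HF-like cluster 5 (-0.84).

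Vim was higher in the induced library in cluster 0 (1.55), cluster 1 (0.85), cluster 2 (3.35), cluster 4 (2.03), cluster 7 (1.43), cluster 8 (2.63) and cluster 11 (3.31) and lower in cycling-like cluster 13 (-2.48). In cluster 13, 5 control cells held 456 of 464 Vim UMIs, and in clusters 2 and 8, 5 induced cells held 77 of 88 and 91 of 93.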

How the results depend on the processing

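No paired analysis was possible because each group has 1 library. Of 115 log2 ratios between libraries, 1053 values under alternatives held 964 that moved by less than the counting interval and 73 that moved by more. The other 16 moved by more and also changed sign, which is called reversed here. Changes of sign within the interval are among the 964, such as Zeb1 in all epithelial cells at -0.023 by the median-of-ratios factor. Under 5% mitochondrial UMIs, which kept 3892 cells, Snai2 in all epithelial cells stood at 0.026, Esrp1 in cluster 1 at -0.088, Grhl2 in cluster 3 at -0.068, Zeb2 in cluster 5 at -0.010, Vim in clusters 7 and 13 at -0.46 and 0.69, and Trp63 in clusters 9 and 15 at 0.079 and 0.55. Without the highest-scoring doublets Vim stood at -1.21 in cluster 8 and 2.79 in cluster 13, and in cluster 9 Ovol1 at 0.63 and Trp63 at 0.18. The mean of CPM over cells gave -0.52 for Twist1 in all epithelial cells and -0.037 for Vim in cluster 7. Without cells holding a stromal or immune marker UMI, Zeb2 in cluster 5 stood at -1.51 and Vim in cluster 13 at 1.24, the latter from 4 and 6 UMIs. The cause was not tested.

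In all epithelial cells 2 members were past the fold and higher. That count was 4 without doublets and at resolution 1.2, 1 under 5% mitochondrial UMIs, by the median-of-ratios factor, by the mean over cells and without marked cells, and 0 at a minimum of 100 UMIs or a log2 fold of 1. The count lower was 0, and 1 by the mean over cells. In fibroblast-like cells the count higher was 0, and 1 under 5% mitochondrial UMIs and with no minimum. The count lower was 1; it was 0 under 5% mitochondrial UMIs, cell by cell, at 100 UMIs and at a log2 fold of 1, and 2 with no minimum. Counts of fibroblast-like over epithelial cells stayed within 1.5 times under every alternative run, and of 200 such ratios 46 moved by more than the counting interval and 0 reversed. Vim in all epithelial cells ranged from 0.05 by the median-of-ratios factor to 2.14 by the cell by cell gate. Dermal papilla-like in place of fibroblast-like cells and thinning to 2000 UMIs were chosen after seeing the data. Depth limits Zeb1, Twist1 and Twist2 in epithelial cells, with 3 to 24 UMIs per library.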
